A study of Homo sapiens with 4 samples.

Results

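The protein-coding histone genes of the HIST1 to HIST4 clusters were examined in polyadenylated RNA. The cells were MDA-MB-231, an established human line from a breast cancer. Members were taken as every protein-coding gene of the deposited expression table whose symbol starts with HIST1H, HIST2H, HIST3H or HIST4H, which gave 70 genes of 48162 listed. Of these, 55 lie in the HIST1 cluster, 11 in HIST2, 3 in HIST3 and 1 in HIST4. They comprise 6 genes of linker histone H1, 17 of H2A, 18 of H2B, 14 of H3 and 15 of H4.

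The study compared 2 libraries from cells given the vehicle control with 2 libraries from cells given MGH-CP1, an inhibitor of the palmitoylation of TEAD transcription factors, for 24 h at a labelled dose of 10 µM. The line was the same in both conditions and no genetic change was named in the labels. No label says that the 2 libraries of a condition came from separate cultures, so the p-values measure only the spread between these libraries. RNA was selected on poly-T beads.

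Histones package DNA into nucleosomes, and cluster histone genes are transcribed mostly while DNA is being copied. Their mRNAs usually end in a conserved stem-loop, bound by SLBP, in place of a poly(A) tail, so poly-T selection leaves most of them out. Some cluster genes also make longer transcripts that run past the stem-loop, or splice around it, and end at a poly(A) signal. The values below are therefore levels of the captured, polyadenylated fraction and of what is carried over with it.

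The end sequences of a few members were taken from the GENCODE v29 transcripts and are shown because they hold the letters of both kinds of end. Capitals mark the 16-base stem-loop, or AATAAA and ATTAAA, the letters of the poly(A) signal.
HIST1H2BD stem-loop, 496-base transcript: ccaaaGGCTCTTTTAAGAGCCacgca
HIST1H2AC stem-loop, 1668-base transcript: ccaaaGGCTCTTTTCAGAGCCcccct
HIST1H4H stem-loop, 1034-base transcript: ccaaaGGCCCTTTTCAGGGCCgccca
HIST2H2BF stem-loop, 1954-base transcript: ccaaaGGCTCTTTTCAGAGCCacttc
HIST1H2BD last 30 bases, 496-base transcript: ttcAATAAAtgagttgtaatcatttcattc
HIST1H2BD last 30 bases, 789-base transcript: taattAATAAAatctgcggagaattgtaaa
HIST1H2AC last 30 bases, 1668-base transcript: tAATAAAaggtaatgcaaagggagaggaaa
In HIST1H2BD the stem-loop lay 39 bases from the end of the shorter transcript, and the spliced 789-base transcript held none. Both forms held AATAAA in their last 30 bases, so these letters alone do not separate them. In HIST1H2AC 1128 bases followed the stem-loop, in HIST2H2BF 1479 and in the 1034-base form of HIST1H4H 630. The length deposited for HIST1H2BD equalled that of the transcript without the loop, and the table does not separate the 2 forms. Of the 70 members, 35 had a GENCODE v29 transcript under the same identifier and 18 of those had a match to the stem-loop pattern.

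Sequencing depth differed between conditions. As recovered from the deposited FPKM (fragments per kilobase of gene, scaled to the depth of the library), depth was 25455533 and 25508824 fragments in the vehicle control and 17997221 and 17577930 in MGH-CP1. Mitochondrial genes took 0.447% and 0.418% of the fragments in the vehicle control and 1.57% and 1.53% in MGH-CP1, and their part in the results was not tested. VIM, the mesenchymal filament gene that this line expresses, stood between 259 and 281 FPKM, and ESR1, the oestrogen receptor gene that it lacks, was at or below 0.0243 FPKM. CYR61, a TEAD target gene, was at 368 and 383 FPKM in the vehicle control and at 216 and 229 in MGH-CP1, a log2 fold change of −0.75 (SE 0.05, limma adjusted p = 3.29e-05).

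Few fragments came from the cluster histone genes. All 70 together held 13824 fragments over the 4 libraries, and 11061 of these lay on 5 genes. No fragment was listed for 25 members, which at 3 fragments per library allows up to 0.118 FPM (fragments per 1000000 on genes) in each vehicle control library and 0.167 and 0.171 in the MGH-CP1 libraries, counting error only. A mean of at least 1 FPKM was reached by 22 members, and these were tested. The remaining 23 had some fragments but stayed under this level. Just inside the limit were HIST1H2AI at a mean of 1.08 FPKM and HIST1H2AG at 1.23, and just outside were HIST1H4B at 0.729 and HIST1H2BL at 0.714.

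Among the 22 genes tested, 2 rose in MGH-CP1 and 8 fell, with an adjusted p under 0.05 in limma. Of all 12080 genes tested, 27.1% were called higher and 23.8% lower, against 9.09% and 36.4% of the cluster histone genes. The median log2 fold change of the 22 genes was −0.25, with an SD of 0.12 over the 4 pairs of libraries, and that of all genes tested was 0.01. The value was above 0 in 9 of the 22 genes (51.8% of all genes tested) and below 0 in 13 (48.2%). In 10 genes both MGH-CP1 libraries lay below both vehicle control libraries (37.4% of all genes tested) and in 2 genes both lay above (39.8% of all genes tested).

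**Figure D1:**
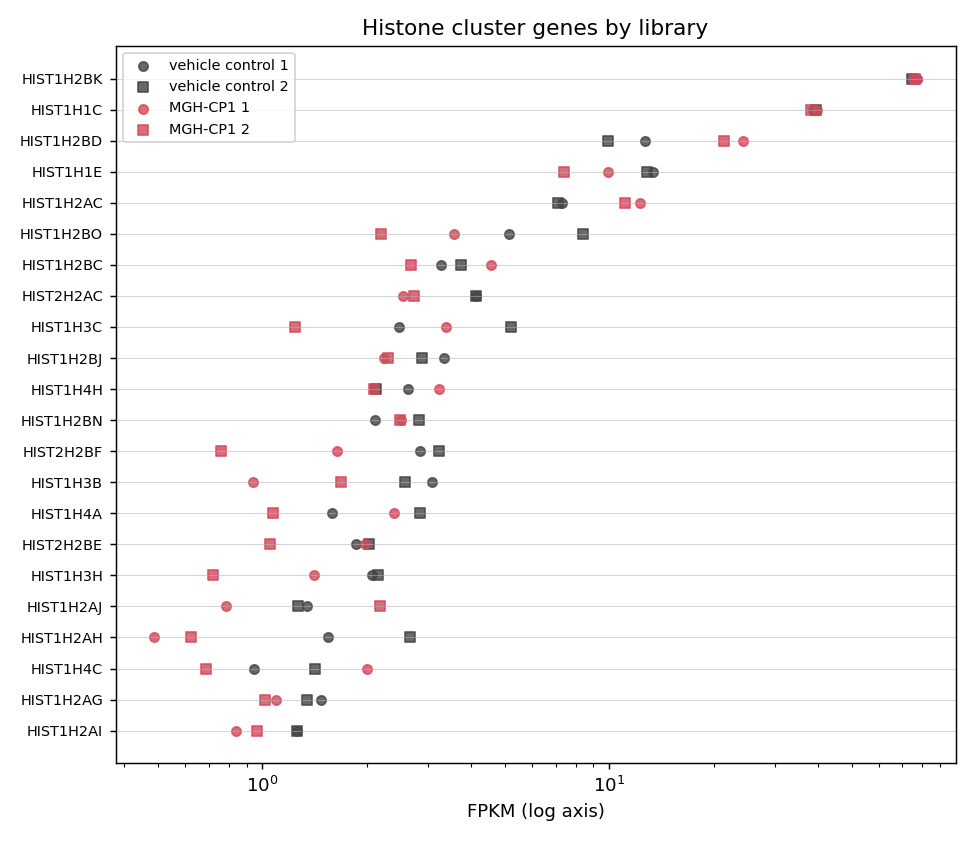
FPKM of the 22 histone cluster genes tested, on a log axis, with one point for each of the 4 libraries. HIST1H2BK and HIST1H1C stand far above the other genes with overlapping conditions, and HIST1H2BD and HIST1H2AC are the 2 genes whose MGH-CP1 points both lie to the right of the vehicle control points.

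The 2 genes that rose were both among those best measured. HIST1H2BD encodes an H2B protein and is listed at chr6:26158349-26171577 on the plus strand (hg19). It was at 12.7 and 9.89 FPKM in the vehicle control and at 24.4 and 21.5 in MGH-CP1 (mean 11.3 ± 1.99 and 22.9 ± 2.04, SD, n = 2 libraries each). The conditions did not overlap, and the log2 fold change was 0.97 (SE 0.11, limma adjusted p = 2.57e-04). A pseudogene, LARP1P1, lies within its span on the same strand.

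HIST1H2AC encodes an H2A protein and is listed at chr6:26124373-26139344 on the plus strand. It was at 7.30 and 7.12 FPKM in the vehicle control and at 12.3 and 11.1 in MGH-CP1. Both treated libraries were again above both controls, with a log2 fold change of 0.63 (SE 0.07, limma adjusted p = 2.91e-04). Across the 14 other settings, the log2 fold change of HIST1H2BD stayed between 0.80 and 1.13 and that of HIST1H2AC between 0.56 and 0.70. Both genes were called in 13 of these settings, the exception being a test of each gene without shared variance.

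The 2 most abundant genes showed no such difference. HIST1H2BK, an H2B gene at chr6:27106073-27114619 on the minus strand, was at 77.3 and 74.8 FPKM in the vehicle control and at 77.2 and 76.3 in MGH-CP1. HIST1H1C, which encodes a linker histone, was at 38.6 and 39.4 FPKM and at 39.9 and 38.2. The conditions overlapped in both genes, with log2 fold changes of 0.01 (SE 0.05, limma adjusted p = 0.823) and 0.00 (SE 0.05, limma adjusted p = 0.973). HIST1H4I lies on the opposite strand within the span of HIST1H2BK and had 3 and 5 fragments in the vehicle control and 13 and 6 in MGH-CP1. The library preparation described does not mark strand, so reads from such overlapping genes cannot be told apart.

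HIST1H1E, the other linker histone gene tested, fell. It lies at chr6:26156559-26157343, next to HIST1H2BD on the same strand. It was at 13.4 and 12.8 FPKM in the vehicle control and at 9.91 and 7.39 in MGH-CP1. Its conditions did not overlap and its log2 fold change was −0.56 (SE 0.11, limma adjusted p = 0.00442). HIST1H1E, HIST1H2BD, HIST1H2AC, HIST1H1C and HIST1H2BK were the 5 members with a mean of at least 100 fragments per library.

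The other 7 genes that fell rested on fewer fragments. HIST1H2BO, an H2B gene, was at 5.13 and 8.39 FPKM and then at 3.57 and 2.19, from 61 and 100 fragments in the vehicle control and 30 and 18 in MGH-CP1. HIST2H2BF, an H2B gene on chromosome 1, was at 2.85 and 3.22 FPKM and then at 1.65 and 0.761. Neither gene's conditions overlapped, and the log2 fold changes were −0.99 (SE 0.22, limma adjusted p = 0.00610) for HIST1H2BO and −0.90 (SE 0.18, limma adjusted p = 0.00426) for HIST2H2BF. HIST2H2BF overlaps FCGR1A on the opposite strand and RP11-196G18.3 and RP11-196G18.21 on its own strand.

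HIST1H2AH, an H2A gene, had 18 and 31 fragments in the vehicle control and 4 and 5 in MGH-CP1, or 1.55 and 2.66 FPKM against 0.486 and 0.622. It passed the filter only through the vehicle control, as did HIST1H2AI, which was not called, so its fall is in part set by the filter and 7 of the 8 falls are in genes over 1 FPKM in both conditions. HIST1H3B, an H3 gene, was at 3.08 and 2.57 FPKM and then at 0.942 and 1.69. HIST1H3H, also an H3 gene, was at 2.08 and 2.15 FPKM and then at 1.41 and 0.722. In all 3 genes the treated libraries lay below the controls, with log2 fold changes of −0.98, −0.74 and −0.61. Without MGH-CP1 replicate 2, HIST1H3H was no longer called (log2 fold change −0.37, limma adjusted p = 0.0522).

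HIST2H2AC, an H2A gene, was at 4.14 and 4.13 FPKM in the vehicle control and at 2.54 and 2.73 in MGH-CP1, a log2 fold change of −0.50. HIST1H2BJ, an H2B gene, was at 3.34 and 2.89 FPKM and then at 2.24 and 2.30. Its fall had a log2 fold change of −0.33 (SE 0.10, limma adjusted p = 0.0269) and was lost when MGH-CP1 replicate 1 (−0.32, adjusted p = 0.0848), MGH-CP1 replicate 2 (−0.34, adjusted p = 0.0654) or vehicle control replicate 1 (−0.25, adjusted p = 0.188) was left out.

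**Figure D2:**
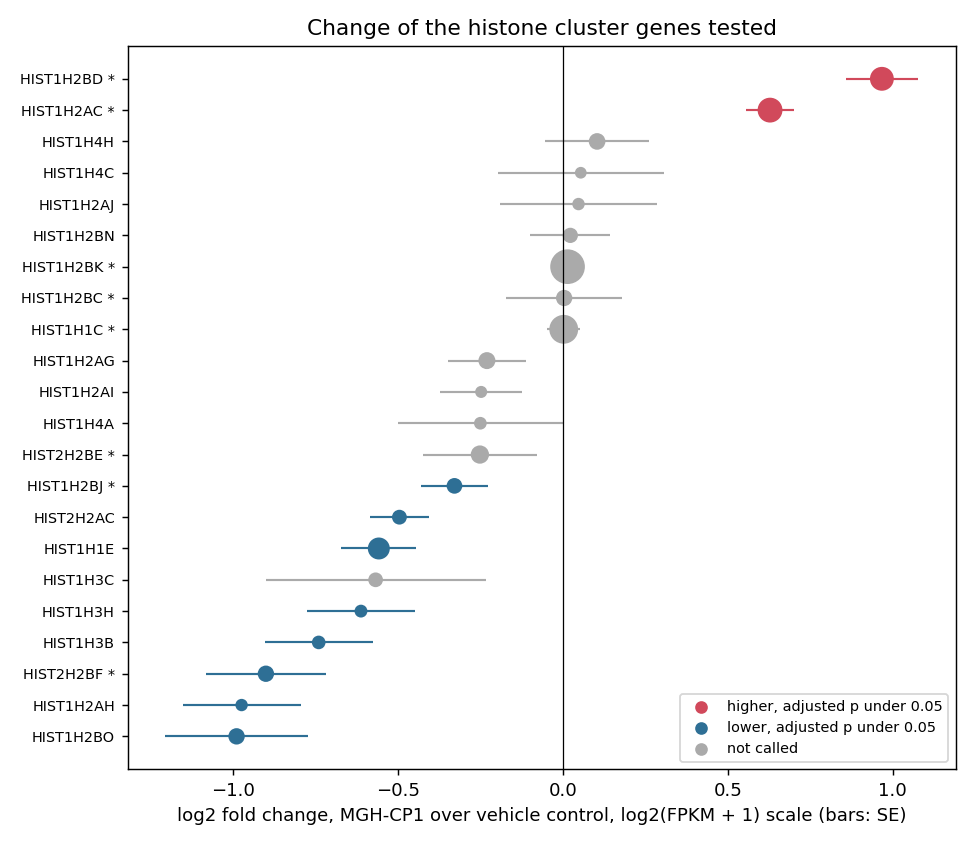
Log2 fold change of each of the 22 genes tested, on the log2(FPKM + 1) scale, with its standard error, where the size of a point grows with the fragments behind it and an asterisk marks genes of the polyadenylated list. The values run from −0.99 for HIST1H2BO to 0.97 for HIST1H2BD, and HIST1H2BK and HIST1H1C, with the largest points, lie at 0.

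Depth limits most of these values. Of the 17 tested members with a mean under 100 fragments per library, 7 were called lower (41.2%) and 0 higher by limma, also 0 at an unadjusted p under 0.05 and 0 by limma voom. Over 1 FPKM in both conditions these were 6 of 15. Among all 1303 tested genes under that mean, 7.6% were called lower and 30.2% higher. The median deposited length was 683 bases for the tested members, 1114 for those 1303 genes and 3240 for all genes tested. A fit with limma voom, which weights each gene by its recovered fragments, called the same 2 genes higher and 5 of the 8 lower, with 28.8% and 25.8% of all genes called higher and lower. The 3 calls not made were HIST1H3H, HIST2H2AC and HIST1H2BJ, with limma voom adjusted p-values of 0.0587, 0.114 and 0.219. Only HIST2H2AC fell when genes of any level entered the test, where 7.41% of the 24878 genes were called lower.

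The 12 genes not called include all 3 H4 genes tested. HIST1H4H was at 2.62 and 2.12 FPKM in the vehicle control and at 3.22 and 2.09 in MGH-CP1, a log2 fold change of 0.10 (SE 0.16, limma adjusted p = 0.607). HIST2H2BE, an H2B gene, was at 1.86 and 2.03 FPKM and then at 1.97 and 1.05, and HIST1H2AG, an H2A gene, at 1.47 and 1.35 and then at 1.09 and 1.02. In HIST2H2BE the conditions overlapped and in HIST1H2AG they did not, with limma adjusted p-values of 0.258 and 0.142. Without MGH-CP1 replicate 1, HIST2H2BE was called lower (log2 fold change −0.52, limma adjusted p = 0.0210), and without MGH-CP1 replicate 2 its value was 0.017 (adjusted p = 0.928). HIST1H3C was at 2.48 and 5.21 FPKM and then at 3.39 and 1.24, the widest spread between libraries of one condition among the H3 genes tested. It was called lower without MGH-CP1 replicate 1 (−1.05, adjusted p = 0.0299) or vehicle control replicate 1 (−0.99, adjusted p = 0.0198), but had −0.08 (adjusted p = 0.840) without MGH-CP1 replicate 2 and −0.15 (adjusted p = 0.708) without vehicle control replicate 2. HIST1H2AJ, at 1.35 and 1.26 FPKM and then at 0.784 and 2.18, was called higher without MGH-CP1 replicate 1 (0.46, adjusted p = 0.0308) and had −0.37 (adjusted p = 0.0739) without MGH-CP1 replicate 2.

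Members were next split by whether a polyadenylated form is generally known. This split was drawn up with earlier results of these data known, so its contrast is descriptive only. The polyadenylated list held 10 genes, of which 8 were tested, with 2 called higher (HIST1H2BD and HIST1H2AC), 2 lower (HIST2H2BF and HIST1H2BJ) and 4 not called, and a median log2 fold change of 0.00. These shares are close to the 27.1% and 23.8% called higher and lower among all genes tested. Of the 60 genes outside the list, 14 were tested, with 0 called higher, 6 lower, 8 not called and a median of −0.37. All of these 14 but HIST1H1E had a mean under 100 fragments per library. Among all tested genes under that mean, 30.2% were called higher and 7.6% lower. Genes outside the list are not all without such forms. GENCODE v29 transcripts of HIST1H4H, HIST1H2AG and HIST1H2BN (log2 fold changes of 0.10, −0.23 and 0.02) also end at AATAAA. On the list, the transcripts of HIST1H2BK, HIST1H1C and HIST4H4 held neither AATAAA nor ATTAAA in their last 30 bases. Each other gene on the list had a transcript that did. The mean fragments per library of the tested genes ranged from 43 to 1354.5 on the list and from 11.25 to 191.5 outside it. The difference between both medians was not tested.

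Summed over genes, the list held 126 and 123 FPM in the vehicle control and 144 and 133 in MGH-CP1 (124 ± 2.43 and 139 ± 7.51, SD, n = 2 libraries each, exact permutation p = 0.333). The 60 other genes held 31.9 and 35.2 FPM and then 26.7 and 20.6 (33.6 ± 2.39 and 23.6 ± 4.30, SD, n = 2 each, exact permutation p = 0.333). Neither sum overlapped between conditions, the list being higher and the rest lower in MGH-CP1, and 0.333 is the smallest two-sided p that 2 against 2 libraries allow. Left without HIST1H2BD and HIST1H2AC, genes chosen after seeing the data, the list held 104 and 103 FPM and then 104 and 97.7, and the conditions overlapped (exact permutation p = 1). The exact 95% binomial intervals of the second sum were 29.7 to 34.1 and 33.0 to 37.6 in the vehicle control, and 24.3 to 29.2 and 18.5 to 22.8 in MGH-CP1, counting error only. Left without HIST1H1E, a split chosen after seeing the data, the second sum was 0.724 times that of the vehicle control, and 0.704 times with it.

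The total over the clusters did not separate the conditions. All 70 genes held 158.0 and 157.9 FPM in the vehicle control and 171 and 154 in MGH-CP1, so that the conditions overlapped (exact permutation p = 1). HIST1H2BK alone supplied between 37.1% and 40.7% of these fragments. By family, H3 genes summed to 4.44 and 5.53 FPM in the vehicle control and 3.06 and 2.39 in MGH-CP1. H1 genes summed to 38.7 and 38.9 and then 37.1 and 33.8. H2A genes, with HIST1H2AC, summed to 20.2 and 19.7 and then 25.6 and 24.3. HIST1H2AC held 310 and 303 of the 514 and 502 H2A fragments in the vehicle control and 369 and 326 of the 461 and 427 in MGH-CP1. Of the 6 H2A genes tested, HIST1H2AC alone was called higher (27.1% of all genes tested), 2 were called lower (23.8%) and 3 were not called. H2B sums overlapped, at 89.6 and 88.8 and then 97.6 and 89.3, as did H4 sums, at 4.99 and 5.06 and then 7.22 and 4.04.

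**Figure D3:**
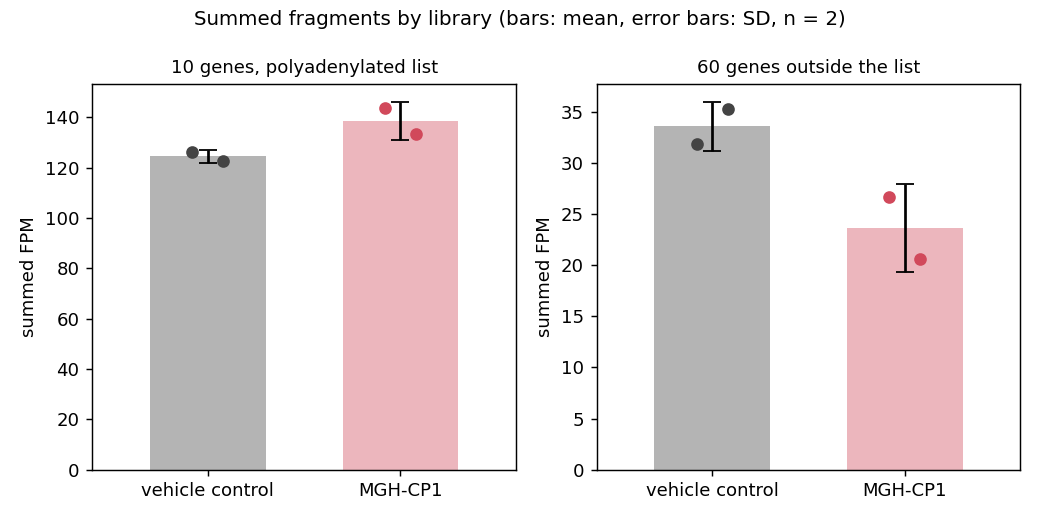
Summed fragments per 1000000 (FPM) of the 10 genes of the polyadenylated list and of the 60 other cluster histone genes, with a point for each library, bars for the mean and error bars for the SD of 2 libraries. The list's treated points, 144 and 133, lie above its controls, and those of the other genes, 26.7 and 20.6, lie below theirs. The list was drawn up with earlier results of these data known.

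Split by length, the medians of the members differed little. The 5 tested genes with a deposited length over 1000 bases (HIST1H2AC, HIST1H2AG, HIST1H4H, HIST2H2BE and HIST2H2BF) had a median log2 fold change of −0.23, and the 17 shorter ones had −0.25. One long gene rose, 1 fell and 3 were not called.

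Along the HIST1 cluster, fragments came from some neighbourhoods and not from others. From HIST1H4D to HIST1H2BI, chr6:26188938-26273622 (hg19), 15 members in a row held 1 fragment in all over the 4 libraries. The 19 genes of any kind listed within this stretch, 4 of them not members, also held 1 fragment in all. The next member before this run, HIST1H2BE, had 18 fragments and the next after it, HIST1H4H, had 223. A second stretch, HIST1H2AL, HIST1H1B, HIST1H3I and HIST1H4L, was listed at 0 in every library. Several members have near-identical copies (HIST2H2AA3 and HIST2H2AA4, HIST2H3A and HIST2H3C, HIST2H4A and HIST2H4B, and the H4 genes at large), and how reads shared by copies were counted is not given in the sources used here, so levels of such genes are uncertain.

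**Figure D4:**
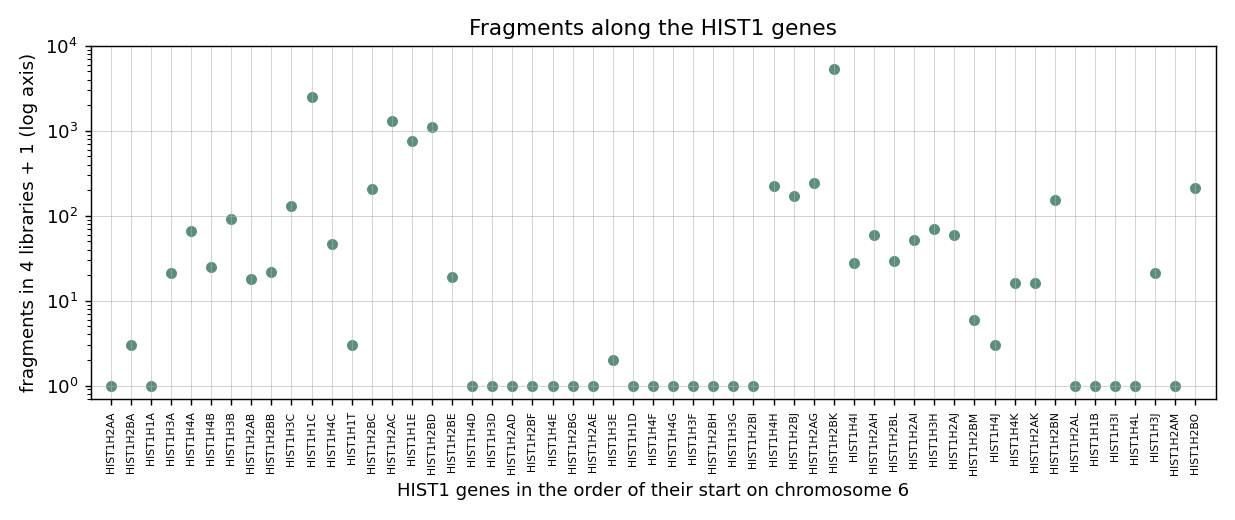
Fragments of each of the 55 HIST1 genes summed over the 4 libraries, plus 1, on a log axis, in the order of their start on chromosome 6. The 15 genes from HIST1H4D to HIST1H2BI stand at or next to 0 between HIST1H2BE with 18 fragments and HIST1H4H with 223.

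Many H2A and H2B genes lie head to head and share the stretch between their starts. In 3 such pairs both genes were tested. HIST1H2BC and HIST1H2AC start 218 bases apart, and HIST1H2AC rose while HIST1H2BC was at 3.28 and 3.75 FPKM in the vehicle control and 4.55 and 2.68 in MGH-CP1 (log2 fold change 0.00, SE 0.18, limma adjusted p = 0.987). HIST1H2BK and HIST1H2AH start 241 bases apart, and HIST1H2AH fell with a log2 fold change of −0.98 where HIST1H2BK had 0.01. In the third pair, 290 bases apart, HIST1H2BJ had −0.33 and HIST1H2AG −0.23. Differences within pairs were not tested.

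Promoter sequences from RefSeq were available for 32 of the 70 members, matched by gene identifier. The 150 bases before the start are shown for the 2 genes that rose, for the partner of HIST1H2AC, for the most abundant gene and for HIST1H1E. Capitals mark CCAAT (bound by NF-Y), TATAAA (the TATA box), ATTTGCAT (the octamer bound by POU2F1) and GGAATG (the core of the TEAD motif), each on either strand, where TATAAA and its reverse complement can overlap.
HIST1H2BD (GRCh38.p14, chr6:26157971-26158120, plus strand): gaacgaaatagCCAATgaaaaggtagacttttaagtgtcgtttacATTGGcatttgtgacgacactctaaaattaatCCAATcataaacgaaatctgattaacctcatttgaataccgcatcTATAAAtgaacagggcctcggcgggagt
HIST1H2AC (GRCh38.p14, chr6:26124022-26124171, plus strand): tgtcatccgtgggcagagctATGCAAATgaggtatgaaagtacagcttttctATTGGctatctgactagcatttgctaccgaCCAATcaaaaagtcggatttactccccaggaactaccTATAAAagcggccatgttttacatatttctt
HIST1H2BC (GRCh38.p14, chr6:26123927-26124076, minus strand): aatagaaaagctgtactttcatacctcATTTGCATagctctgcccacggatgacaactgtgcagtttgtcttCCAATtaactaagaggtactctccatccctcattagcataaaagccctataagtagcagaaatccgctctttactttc
HIST1H2BK (GRCh38.p14, chr6:27146859-27147008, minus strand): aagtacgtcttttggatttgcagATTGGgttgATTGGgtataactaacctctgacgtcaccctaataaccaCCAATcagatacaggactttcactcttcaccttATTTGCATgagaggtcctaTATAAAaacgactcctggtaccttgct
HIST1H1E (GRCh38.p14, chr6:26156179-26156328, plus strand): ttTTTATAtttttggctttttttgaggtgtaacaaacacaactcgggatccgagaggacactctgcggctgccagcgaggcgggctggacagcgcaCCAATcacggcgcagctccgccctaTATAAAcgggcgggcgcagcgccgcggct
The octamer of HIST1H2AC and HIST1H2BC is one site, read from either side. None of these 5 stretches held GGAATG. Over the 250 bases before the start, CCAAT was found in 29 of the 32 members (90.6%, against 33.0% of all 27305 promoters), TATAAA in 22 (68.8% against 11.1%), the octamer in 13 (40.6% against 1.66%) and GGAATG in 2 (6.25% against 11.9%). CCAAT was present in both genes that rose and in HIST1H1E, which fell. A match describes the letters only.

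The genes that supply and use histones were then counted in the same fit. SLBP, which binds the stem-loop, was at 77.8 and 76.5 FPKM in the vehicle control and at 56.8 and 57.2 in MGH-CP1, a log2 fold change of −0.43 (SE 0.05, limma adjusted p = 2.00e-04). Of the 14 genes listed for histone mRNA 3′ end processing, 10 fell (23.8% of all genes tested), including ZNF473 (−0.43), SNRPF (−0.42) and CASP8AP2 (−0.37). By limma (27.1% of all genes tested higher), at an unadjusted p under 0.05 and by limma voom, 0 rose. The 4 not called were LSM11 (−0.20), SNRPG (−0.03), LSM10 (0.05) and SYMPK (0.12). The list is not limited to histone mRNA, since its SNRP, CPSF and CSTF genes also serve general RNA processing. SNRPB, the most abundant of the 14 genes, fell from a mean of 112 to 97.6 FPKM.

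The list for histone gene transcription held 10 genes. It includes the cap-binding genes NCBP1 and NCBP2 and their partner SRRT, which are not specific to histone genes. Of the 10 genes, 7 fell (23.8% of all genes tested), NCBP1 and SRRT among them, and 2 rose (27.1%). NPAT, the coactivator of cluster histone genes, was at 12.2 and 10.8 FPKM and then at 7.86 and 8.96, a log2 fold change of −0.42 (SE 0.09, limma adjusted p = 0.00478). CCNE2, the cyclin E2 gene, had −0.70 and NCBP1, a cap-binding gene, −0.54, while HINFP, an activator of H4 genes, rose by 0.36. In the list for translation and decay of histone mRNA, 2 of 10 genes fell (ERI1 −0.40 and UPF1 −0.22), CTIF rose by 0.25 and 7 were not called, no larger a share in either direction than among all genes tested (23.8% lower and 27.1% higher).

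All 16 S phase genes fell (23.8% of all genes tested). Their log2 fold changes ran from −1.10 for RRM2, a ribonucleotide reductase gene, to −0.52 for MCM5, a subunit of the replicative helicase. PCNA, the most abundant, was at 180 and 168 FPKM in the vehicle control and 104 and 113 in MGH-CP1. In bulk libraries such as these, fewer cells in S phase and less RNA per cell cannot be told apart, and the part of either in the histone values was not tested. Of the 21 histone chaperone genes tested, 14 fell (23.8% of all genes tested), led by CHAF1B (−0.88) and HJURP (−0.81), and 7 were not called.

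Replacement histone genes lie outside the clusters and mostly make ordinary polyadenylated mRNA, while H2AFX is known to make both a stem-loop form and a polyadenylated one. Of 10 tested, 6 fell (23.8% of all genes tested), 1 rose (27.1%) and 3 were not called. H2AFX was at 168 and 173 FPKM in the vehicle control and at 87.8 and 92.3 in MGH-CP1, a log2 fold change of −0.92 (SE 0.05, limma adjusted p = 1.77e-05). CENPA, the centromeric H3 gene, had −0.64, and H2AFJ, an H2A gene, rose by 0.59. The most abundant, the linker histone gene H1F0, was at 152 and 160 FPKM and then at 155 and 160 and was not called (0.01, adjusted p = 0.849).

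Of the 15 genes of the general poly(A) machinery, 7 fell (23.8% of all genes tested), 2 rose (27.1%) and 6 were not called. NUDT21 fell with −0.53, PABPC1, the most abundant, with −0.35, and CPSF1 (0.41) and PABPN1 (0.57) rose.

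**Figure D5:**
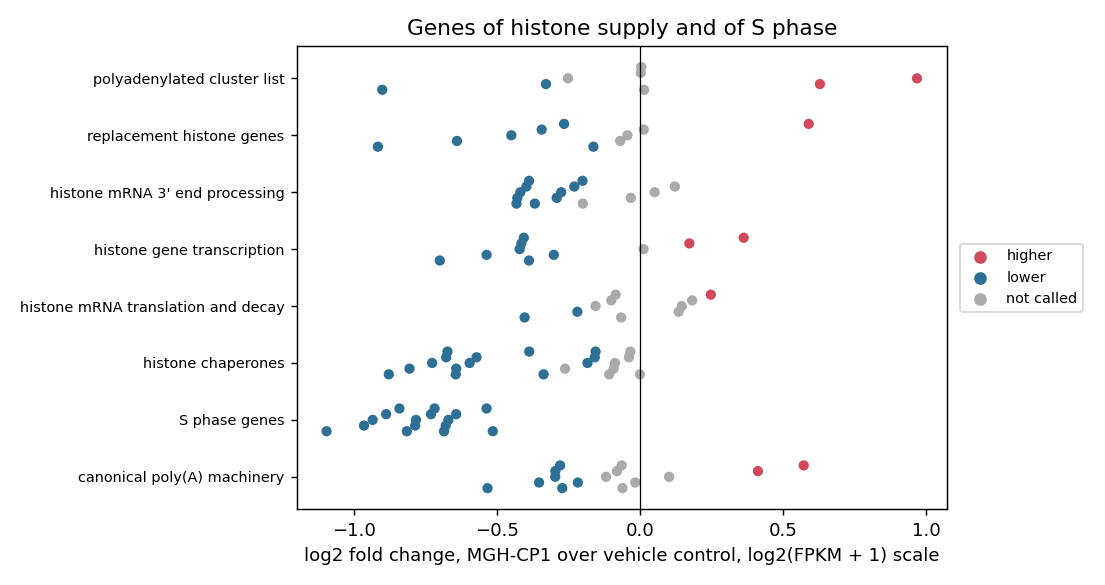
Log2 fold change of each tested gene in 8 lists, on the log2(FPKM + 1) scale, coloured by its call in limma. All 16 S phase genes lie below −0.5, while the polyadenylated cluster list runs from −0.90 for HIST2H2BF to 0.97 for HIST1H2BD.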

How the data were processed

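MDA-MB-231 cells were given vehicle control or MGH-CP1 for 24 h (10 µM in the labels, while the methods name mM), and 4 poly-T selected libraries were sequenced. Per the labels, the submitters' processing notes name CASAVA 1.8, STAR and hg19. The deposited values are FPKM per gene, made by the authors, and the counting tool is not given in the sources used here. Columns named DMSO were taken as the vehicle control.

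FPKM times gene length was a whole multiple of one step in each library (100% of values within 0.001 fragments), which gave fragments and depth. Genes with a mean of at least 1 FPKM were tested on log2(FPKM + 1) with limma 3.58.1 in R 4.3.3 (eBayes with trend, two-sided, Benjamini-Hochberg over 12080 genes, threshold 0.05). Fold changes on this scale understate those of low genes. On simulated data with log2 changes of at least 1 in size and a spread set in advance, limma recovered 98.5% of 195 changed genes, with 22 of 214 calls false. Smaller changes were not simulated, so this does not show how often they are missed. Named genes were the 12 members with most fragments, the 5 largest rises and falls and, per list, 3 extreme and the most abundant genes; other tested members were also named. Members and lists were chosen with earlier results of these data known. Alternatives covered the pseudocount, filters, scaling, variance model, voom, a replicate block and each library left out.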

Additional observations from a re-analysis of the deposited data

How the results depend on the processing

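HIST1H2BD and HIST1H2AC remained called higher in every setting but the per-gene test without shared variance, which called 0 members higher and 0 lower (limma had 2 and 8), 5 of the 22 members at an unadjusted p under 0.05, and 0 genes of the lists in place of 68. It called 13 of all 12080 genes, against 6142 in limma. The count of members called lower was 5 with limma voom on recovered fragments, 1 at a mean of at least 5 FPKM (5 members tested), 4 at a mean of at least 50 fragments (11 tested) and 1 with no filter on low values. Of those 11 members the main fit called 3 lower, and the filter at 50 fragments added HIST1H2AG (limma adjusted p = 0.0464). The count called lower was 10 with limma without the trend and 10 with quantile normalization, both of which also called HIST1H2AG and HIST1H2AI. Over all genes tested in each setting, the share called in either direction was 50.8% in the main fit, 54.6% with limma voom and 59.2% at 5 FPKM. It was 53.9% at 50 fragments, 16.6% with no filter, 47.7% without the trend and 50.8% with quantile normalization. With a library left out, the log2 fold change of HIST1H2BD ran from 0.80 to 1.13 and that of HIST1H2AC from 0.56 to 0.69.

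The median log2 fold change of the members tested was −0.42 with limma voom, 0.014 at 5 FPKM, 0.0023 at 50 fragments, −0.10 with no filter, −0.395 with a pseudocount of 0.1 and −0.40 with quantile normalization. It ran from −0.34 to −0.14 with a library left out. For genes over 1000 bases it was −0.41 with limma voom, 0.63 at 5 FPKM and 0.024 with no filter, and it ran from −0.26 to 0.017 with a library left out, the highest without MGH-CP1 replicate 2. For the polyadenylated list it was 0.32 at 5 FPKM, and it ran from −0.16 (without MGH-CP1 replicate 1) to 0.027. The causes were not tested, beyond the fewer members that stricter filters leave.

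Replicate numbers were shared between conditions, but same-numbered libraries hardly deviated together (correlation 0.08), so they were not taken as pairs. With a replicate block, 2 members were called higher and 8 lower, and no call on a member changed. With 4 to 31 fragments per library, HIST1H2AH shows how low the depth of the called genes can be.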

Other observations

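Pseudogenes of the histone clusters, which entered no comparison, numbered 19 in the table. Of these, 6 had a fragment and together they held 289 fragments over the 4 libraries.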
